A study of Mus musculus with 9 samples.

Results

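The genes described here are 10 members of the NRF2 antioxidant and glutathione programme: Nfe2l2, which encodes NRF2 itself, and Slc7a11, Gclc, Gclm, Gsr, Gstt4, Txnrd1, Prdx1, Srxn1 and Hmox1. Members were taken by gene symbol from the annotation of an Illumina mouse bead array, and a probe was kept where its detection p-value was under 0.05 on at least 3 of the 9 arrays. Of the 17 probes with a member's symbol, 15 were kept, and they covered 9 of the 10 genes, against 9081 named genes and 16415 probes kept on the whole array. No probe was listed under Gsr, glutathione reductase, which is not analysed here. The threshold mattered for 1 gene: the probe of Gclc had signal on exactly 3 arrays, while the 2 probes left out, 1 each for Nfe2l2 and Slc7a11, had signal on 0 arrays.

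All arrays held bone marrow-derived macrophages of C57Bl/6 mice, grown in medium conditioned by L929 fibroblasts. The cells received TRAF-STOP 6877002 (3 arrays), TRAF-STOP 6860766 (3 arrays) or vehicle (3 arrays) for 1 h and then, in every group, the CD40-activating antibody FGK45 at 25 ug/ml for 8 h. TRAF-STOPs are small molecules made to block the signalling of CD40, an activating receptor of macrophages, through the adaptor TRAF6. Compound doses are not stated in the labels, so the compounds are compared at the same times only, no array held macrophages without the antibody, and mice are numbered 1 to 3 in each group without a statement on whether a number is the same animal in all groups.

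NRF2 is a transcription factor that its partner KEAP1 marks for degradation in unstressed cells. When oxidants or electrophiles modify KEAP1, NRF2 accumulates, pairs with small MAF proteins and binds antioxidant response elements at genes for glutathione synthesis, the thioredoxin system, quinone reduction and heme breakdown. In macrophages this programme limits oxidative damage during activation and is known to restrain inflammatory gene expression.

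Each array carried 45281 probes, of which 15271 to 15926 had signal over background, and within a group the arrays' log2 values correlated at 0.993 to 0.996 across the 11406 features tested. Of 9 macrophage markers, 8 had a probe and all 8 were detected, among them Adgre1, Csf1r and Mertk. Against vehicle, the markers Mertk and Fcgr1 were higher under 6877002 and Fcgr1 was lower under 6860766. Of the markers with a probe, 0 of 6 were detected for fibroblasts, 0 of 4 for T cells, 0 of 2 for B cells, 0 of 5 for dendritic cells, 0 of 4 for mast cells and 0 of 3 for erythroid cells. Of 6 neutrophil markers 5 had a probe and all 5 were detected, and their summed signal above background was 2017 to 2317 under 6877002, 1910 to 2211 under 6860766 and 1939 to 2267 with vehicle. No probe was listed under Ly6g. The arrays lay on 4 slides. Slide 1 held 6860766 replicates 1 and 2 and vehicle replicate 1, slide 2 held vehicle replicate 2, slide 3 held 6877002 replicates 1 and 2 and 6860766 replicate 3, and slide 4 held 6877002 replicate 3 and vehicle replicate 3. Values are therefore also given with slide as a block and within a slide that held both groups. Vehicle replicate 2 was alone on its slide, so with slide as a block it adds nothing to any difference. Vehicle then rests on replicates 1 and 3, and within slide 4 each group has 1 array.

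The start sites of the members are shown first, because the programme is defined by the element in front of its genes. RefSeq promoter windows of GRCm38.p6, from 250 bases before to 50 bases after the start, were matched by symbol for 7 of the 10 members (9 windows, with 3 for Txnrd1). Both strands were searched for TGACNNNGC, the core of the antioxidant response element, and for TGANTCA, the element of AP-1, which can overlap it. The first was found in 12.4% and the second in 7.81% of all 32851 windows. Among the members, the windows of Nfe2l2, Gclm, Prdx1 and Srxn1 and 1 of those of Txnrd1 held TGACNNNGC, and those of Prdx1 and Srxn1 held TGANTCA. A match describes the letters only. The 4 windows below belong to Gclm, Slc7a11, Gstt4 and Prdx1. On their brightest probes, Gclm and Slc7a11 were lowest under 6877002. Gstt4 was lower under both compounds, and the 2 probes of Prdx1 differed from each other. Matches to either element are in capitals.
Gclm, chr3:122245307-122245606, plus strand: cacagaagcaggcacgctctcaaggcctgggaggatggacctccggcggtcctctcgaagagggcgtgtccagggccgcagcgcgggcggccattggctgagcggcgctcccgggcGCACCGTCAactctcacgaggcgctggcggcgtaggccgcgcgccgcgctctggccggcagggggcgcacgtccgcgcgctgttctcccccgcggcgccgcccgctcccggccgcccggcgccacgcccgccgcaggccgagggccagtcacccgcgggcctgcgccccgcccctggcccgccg
Slc7a11, chr3:50443564-50443863, minus strand: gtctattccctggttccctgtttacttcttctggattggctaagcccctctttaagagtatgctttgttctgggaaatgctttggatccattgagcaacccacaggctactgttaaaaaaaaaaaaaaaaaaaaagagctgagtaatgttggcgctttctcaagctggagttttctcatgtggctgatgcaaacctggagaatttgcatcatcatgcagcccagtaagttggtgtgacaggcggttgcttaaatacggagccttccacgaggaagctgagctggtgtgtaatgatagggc
Gstt4, chr10:75822494-75822793, minus strand: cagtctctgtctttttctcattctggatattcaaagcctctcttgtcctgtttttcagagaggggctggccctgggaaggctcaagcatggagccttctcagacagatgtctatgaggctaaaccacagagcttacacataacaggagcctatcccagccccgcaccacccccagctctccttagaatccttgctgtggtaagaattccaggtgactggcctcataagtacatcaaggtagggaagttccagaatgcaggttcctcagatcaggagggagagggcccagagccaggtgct
Prdx1, chr4:116685349-116685648, plus strand: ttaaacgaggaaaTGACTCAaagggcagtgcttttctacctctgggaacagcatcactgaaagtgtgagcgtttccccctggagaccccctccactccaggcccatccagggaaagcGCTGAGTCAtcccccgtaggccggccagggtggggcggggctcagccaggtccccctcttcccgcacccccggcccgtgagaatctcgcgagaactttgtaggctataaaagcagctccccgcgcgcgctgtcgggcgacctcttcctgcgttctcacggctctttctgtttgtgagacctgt
In Gclm the match lay at positions -134 to -126 from the start, on the minus strand. In Prdx1 an AP-1 match lay at positions -237 to -231 from the start, and the antioxidant match at -133 to -125, on the minus strand, overlapped a further AP-1 match at -131 to -125. The windows of Slc7a11 and Gstt4 held neither string of letters, nor did that of Nqo1, an NRF2 target described below. Sequence outside the windows was not searched, so an absent match does not show that a gene lacks the element.

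Values below are the deposited log2 intensities, normalised between arrays, of each gene's brightest detected probe. They were compared with limma over all 11406 features, with Benjamini-Hochberg adjustment over all of them, and a gene was called at an adjusted p under 0.05. Each gene is followed across arrays, since the level of 1 probe cannot be set against that of another. In this bulk measurement, less RNA per cell and fewer cells of a type cannot be told apart.

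Counts were made on the brightest probe of each gene, with all 9 arrays in 1 fit without a block. Under 6877002, 0 of the 9 measured members rose and 2 fell, Gclm and Gstt4, against vehicle. Of all features, 2.99% were called in this comparison. Under 6860766, 0 rose and 1 fell, Gstt4, where 2.88% of all features were called. Between 6877002 and 6860766, 1 member differed, Gclm, where 4.52% of all features were called. At an unadjusted p under 0.05, 3 members passed between 6877002 and vehicle, 3 between 6860766 and vehicle and 4 between the compounds, while 16.4%, 12.7% and 16.7% of all features did. The members' median log2 difference was -0.034 for 6877002 minus vehicle, -0.007 for 6860766 minus vehicle and -0.099 for 6877002 minus 6860766, and the medians of all features were -0.008, 0.010 and -0.020. The groups did not overlap for 3 members between 6877002 and vehicle (23.1% of all features), for 2 between 6860766 and vehicle (15.4%) and for 3 between the compounds (21%). Both comparisons with vehicle use the same 3 vehicle arrays. The members, and the wider list below, were chosen with earlier results of these data known, so these counts are not a test of a list.

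**Figure D1:**
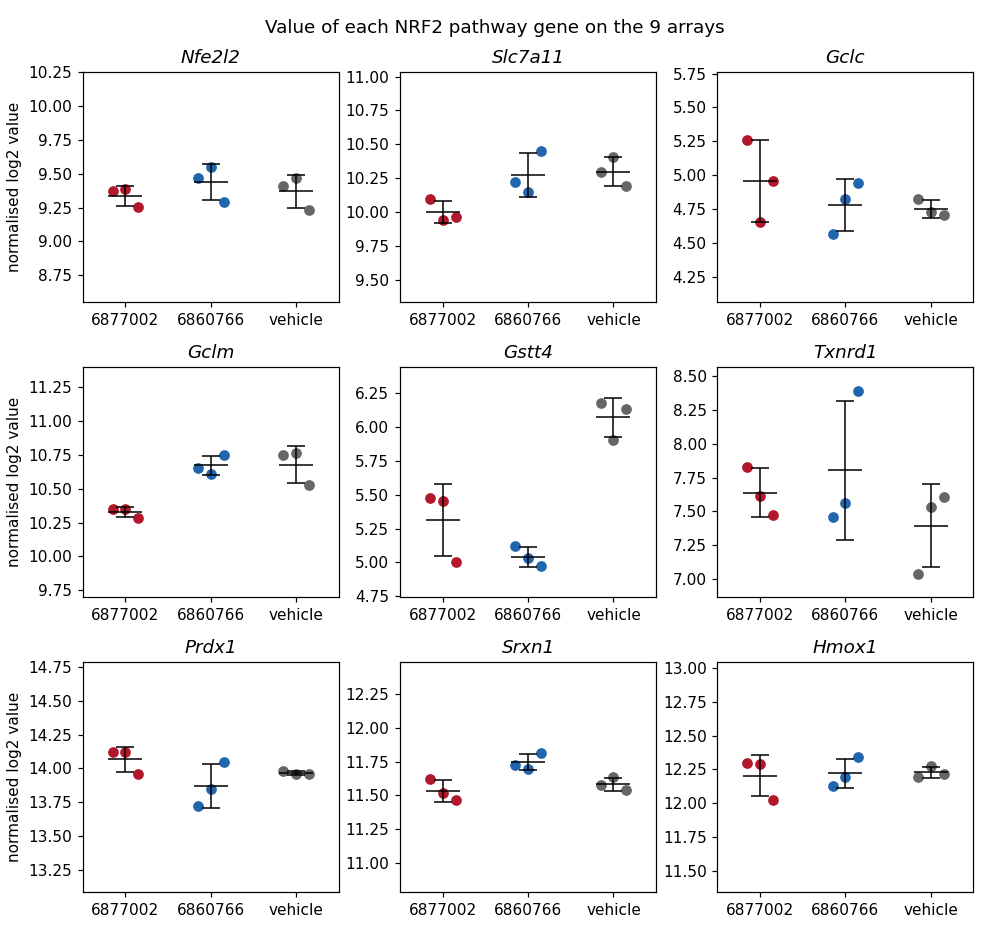
Normalised log2 value (vertical axis) of the 9 measured members on each array, by group, with the mean and SD of 3 arrays as bars; all panels span at least 1.7 log2 units and are centred on their own gene. Gclm lay between 10.29 and 10.35 on the 6877002 arrays, below the other 6 arrays, and Gstt4 lay at or under 5.48 on the arrays of both compounds, below the vehicle arrays.

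The transcription factor itself did not pass in any comparison. Nfe2l2 had log2 values of 9.37, 9.38 and 9.25 under 6877002, of 9.47, 9.55 and 9.29 under 6860766 and of 9.41, 9.47 and 9.24 with vehicle. The 3 groups overlapped throughout. The difference was -0.03 ± 0.09 (SE, n = 3 arrays per group) for 6877002 minus vehicle and 0.07 ± 0.09 for 6860766 minus vehicle, with 95% confidence intervals of -0.21 to 0.14 and -0.11 to 0.24. NRF2 is regulated mainly by degradation of the protein, which arrays do not measure.

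Gclm, the modifier subunit of glutamate-cysteine ligase, which catalyses the rate-limiting step of glutathione synthesis, fell under 6877002. Its log2 values were 10.35, 10.35 and 10.29 under 6877002, 10.66, 10.61 and 10.75 under 6860766 and 10.75, 10.76 and 10.53 with vehicle. Every 6877002 array lay below every array of the other groups, and the 6860766 and vehicle arrays overlapped. The difference was -0.35 ± 0.07 (SE, n = 3 per group) for 6877002 minus vehicle (limma adjusted p = 0.0098) and -0.34 ± 0.07 for 6877002 minus 6860766 (adjusted p = 0.0070). For 6860766 minus vehicle it was -0.01 ± 0.07, with an interval of -0.16 to 0.15. With slide as a block the difference between 6877002 and vehicle was -0.35 (adjusted p = 0.021), and within slide 4 it was -0.24. Within slide 3 the difference between 6877002 and 6860766 was -0.40. The call for 6877002 against vehicle was lost without 6877002 replicate 3 (adjusted p = 0.054), vehicle replicate 1 (0.063) or vehicle replicate 2 (0.064). It was also lost with arrays scaled to a common median, and the call between the compounds was lost with that scaling (adjusted p = 0.053).

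Slc7a11 encodes the cystine carrier of system xc-, which brings in the cysteine for glutathione. It had log2 values of 10.09, 9.94 and 9.96 under 6877002, of 10.22, 10.15 and 10.45 under 6860766 and of 10.30, 10.41 and 10.19 with vehicle. On this brightest probe, as for Gclm, all 6877002 arrays lay below the other 6. Here the adjusted p did not pass: the difference was -0.30 ± 0.08 for 6877002 minus vehicle (limma adjusted p = 0.060, n = 3 per group) and -0.28 ± 0.08 for 6877002 minus 6860766 (adjusted p = 0.072). With slide as a block both passed, at -0.36 (adjusted p = 0.038) and -0.34 (adjusted p = 0.018). The difference from vehicle also passed without 6860766 replicate 3, without vehicle replicate 3 and with the compared groups alone. The other 3 detected probes of Slc7a11 gave -0.19 ± 0.10, -0.21 ± 0.12 and -0.01 ± 0.18 for 6877002 minus vehicle, and none passed in a fit of all 16415 detected probes, where 2.52% were called. For 6860766 minus vehicle the 4 probes gave -0.02, -0.21, -0.07 and 0.16. For 6877002 minus 6860766 the other 3 gave 0.02, -0.14 and -0.18. None of these passed in that fit, where 3.95% were called between the compounds.

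Gclc, the catalytic partner of Gclm, was close to the background. Its probe was detected on 2 of 3 arrays under 6877002, on 1 of 3 under 6860766 and on 0 of 3 with vehicle. The log2 values were 5.26, 4.66 and 4.96 under 6877002, 4.57, 4.82 and 4.94 under 6860766 and 4.83, 4.73 and 4.70 with vehicle. The groups overlapped, the probe was kept only through the arrays of the compounds, and no fold is given. A change in the catalytic subunit was not measurable with this probe.

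Among the genes that use glutathione, Gstt4 was lower under both compounds. It encodes a theta-class glutathione transferase, an enzyme family that couples glutathione to reactive compounds. Its log2 values were 5.48, 5.46 and 5.004 under 6877002, 5.12, 5.03 and 4.97 under 6860766 and 6.18, 5.90 and 6.13 with vehicle. The arrays of both compounds lay below all vehicle arrays and overlapped each other. The difference was -0.76 ± 0.16 (SE, n = 3 per group) for 6877002 minus vehicle (limma adjusted p = 0.0098) and -1.03 ± 0.16 for 6860766 minus vehicle (adjusted p = 0.00091). The compounds did not differ past the threshold, with 0.27 ± 0.16 for 6877002 minus 6860766 and an interval of -0.06 to 0.60. The signal was dim, with raw intensities of 120.5 to 157 and detection p-values of at most 0.037, so the size of the difference depends on how background is handled. Without background correction it was -0.28 for 6877002 minus vehicle and -0.36 for 6860766 minus vehicle, and both calls stood. Within slide 4 the 6877002 difference was -1.13, and within slide 1 the 6860766 difference was -1.10. The 6860766 call stood with any 1 array left out, and the 6877002 call was lost without 6877002 replicate 3 (-0.60, adjusted p = 0.066) or vehicle replicate 1 (-0.71, adjusted p = 0.059).

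**Figure D2:**
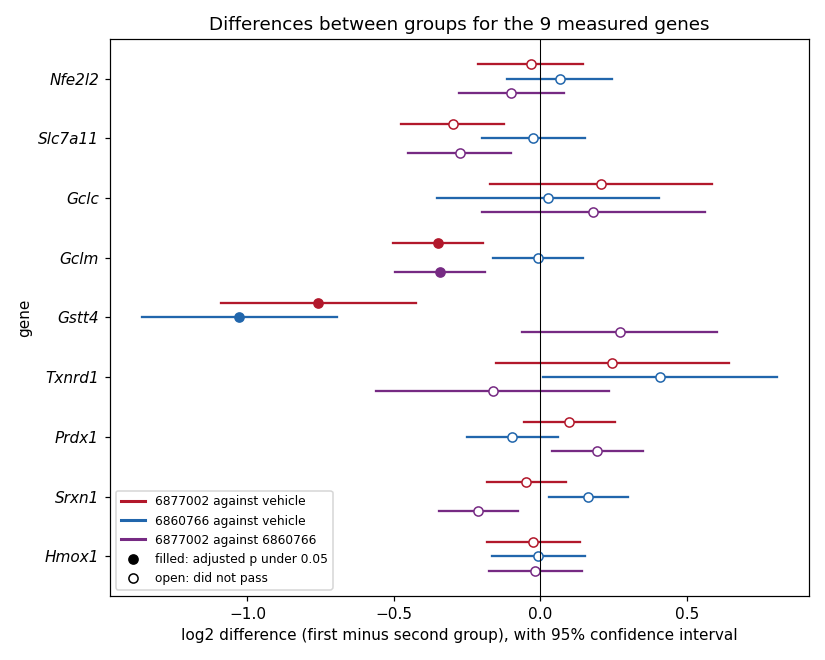
Log2 difference, first minus second group, for each measured member (vertical axis) in the 3 comparisons, with 95% confidence intervals from limma; filled points have an adjusted p under 0.05. The filled points are Gclm at -0.35 and -0.34 in the comparisons that involve 6877002, and Gstt4 at -0.76 and -1.03 against vehicle.

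The theta-class genes lie side by side in the mouse genome. In the order of RefSeq genes, Gstt3 and Gstt1 come just before Gstt4, and Gstt2 and Mif, a cytokine gene, just after it. Gstt1, the direct neighbour, had log2 values of 5.94, 6.52 and 6.09 under 6877002, of 5.88, 6.07 and 6.09 under 6860766 and of 6.45, 6.64 and 6.64 with vehicle. It fell under 6860766 by 0.57 on the log2 scale (SE 0.15, limma adjusted p = 0.043) and was at -0.40 ± 0.15 under 6877002 (adjusted p = 0.17). The Gstt1 call was lost without any 1 of 6 of the 9 arrays (6877002 replicate 3, 6860766 replicates 1 and 2 and each vehicle array), with median scaling (-0.50, adjusted p = 0.12), with no detection filter, with slide as a block (-0.54, adjusted p = 0.13) and with mouse number as a block. Without background correction the difference under 6860766 was -0.27 (adjusted p = 0.040). Gstt3 (-0.14 and -0.11), Gstt2 (-0.13 and -0.06) and Mif (-0.03 and -0.02) had small differences under 6877002 and 6860766, and none of these 3 passed. Probes of such related genes can share target sequence, and the probe sequences were not examined.

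The thioredoxin and peroxiredoxin genes gave no call with their brightest probes in the fit of all 9 arrays without a block. Txnrd1, the thioredoxin reductase of the cytosol, had log2 values of 7.83, 7.61 and 7.47 under 6877002, of 7.46, 7.56 and 8.39 under 6860766 and of 7.04, 7.53 and 7.61 with vehicle. The groups overlapped, with 6860766 replicate 3 the highest array and vehicle replicate 1 the lowest. The difference was 0.41 ± 0.19 for 6860766 minus vehicle (limma adjusted p = 0.37, n = 3 per group) and 0.11 without 6860766 replicate 3. The fit with slide as a block gave other calls for Txnrd1. With slide as a block, 6860766 was above vehicle by 0.49 ± 0.11 (adjusted p = 0.022) and 6877002 minus 6860766 was -0.65 (adjusted p = 0.0012), and the difference between 6877002 and vehicle was -0.16, against 0.24 without the block. Within slide 1, 6860766 minus vehicle was 0.47, where vehicle was replicate 1 alone, the lowest array. Within slide 3, 6877002 minus 6860766 was -0.67, where 6860766 was replicate 3 alone, the highest array. Within slide 4, 6877002 minus vehicle was -0.14, with 1 array in each group. The values with slide as a block thus lean on these single arrays.

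Srxn1 encodes sulfiredoxin, which repairs over-oxidised peroxiredoxins. It had log2 values of 11.62, 11.52 and 11.47 under 6877002, of 11.73, 11.70 and 11.81 under 6860766 and of 11.58, 11.63 and 11.54 with vehicle. On its brightest probe the 6860766 arrays were the 3 highest. The difference was 0.16 ± 0.06 for 6860766 minus vehicle (limma adjusted p = 0.25) and -0.21 ± 0.06 for 6877002 minus 6860766 (adjusted p = 0.072, n = 3 per group). For 6860766 minus vehicle the other detected probes gave 0.09 ± 0.09 and 0.01 ± 0.12, and their groups overlapped. All 3 detected probes of Srxn1 put 6877002 below 6860766, with differences of -0.21, -0.18 and -0.18, and none passed in the fit of all probes, where 3.95% were called.

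Prdx1, a peroxiredoxin that reduces hydrogen peroxide, was measured by 2 probes that differed. The brighter probe had log2 values of 14.12, 14.12 and 13.96 under 6877002, of 13.72, 13.85 and 14.04 under 6860766 and of 13.98, 13.96 and 13.96 with vehicle, and the groups overlapped. On it, vehicle replicates 2 and 3 shared a normalised value of 13.96 at raw intensities of 18640 and 15108, so small differences are coarse. The differences of this probe from vehicle were 0.10 ± 0.07 for 6877002 and -0.10 ± 0.07 for 6860766 (limma adjusted p = 0.54 and 0.67). For 6877002 minus 6860766 it gave 0.19 ± 0.07 (adjusted p = 0.17), which became a call without 6860766 replicate 3 (0.28, adjusted p = 0.0093). The other probe had 8.46, 8.36 and 8.22 under 6877002, 8.28, 8.32 and 8.92 under 6860766 and 8.05, 7.94 and 7.94 with vehicle. On that probe the arrays of both compounds lay above all vehicle arrays. In a fit of all 16415 detected probes, where 2.4% were called for 6860766, it was above vehicle by 0.53 ± 0.13 under 6860766 (adjusted p = 0.032) and by 0.38 ± 0.13 under 6877002 (adjusted p = 0.15). Without 6860766 replicate 3 the 6860766 difference was 0.32 (adjusted p = 0.077) and the 6877002 difference passed (adjusted p = 0.013). The 6860766 call was also lost without 6877002 replicate 2 (adjusted p = 0.051), vehicle replicate 1 (0.061), vehicle replicate 2 (0.15) or vehicle replicate 3 (0.11). With slide as a block it was 0.41 (adjusted p = 0.047), and the 6877002 difference was 0.07.

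**Figure D3:**
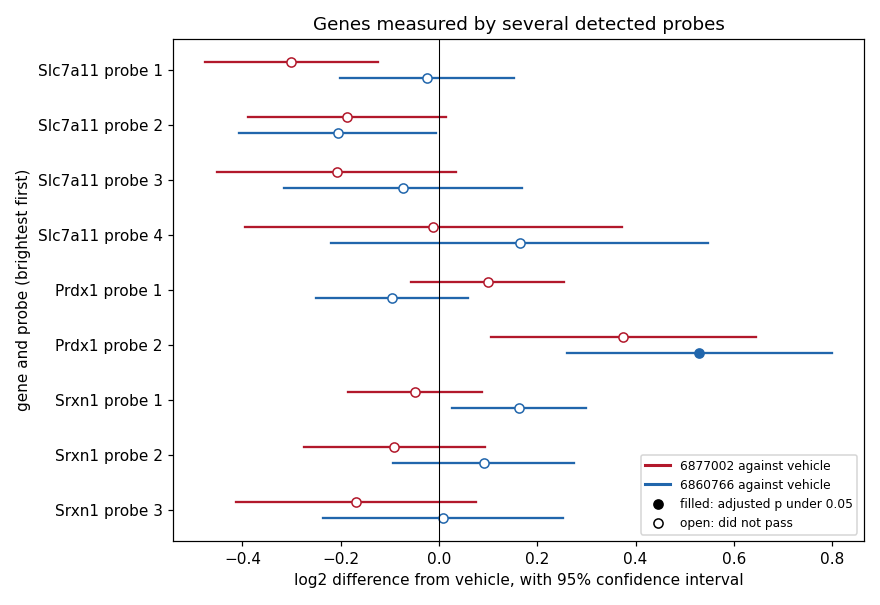
Log2 difference from vehicle (horizontal axis, with 95% confidence intervals) for each detected probe of Slc7a11, Prdx1 and Srxn1, brightest first; filled points have an adjusted p under 0.05 among 16415 probes. The second Prdx1 probe stands at 0.53 under 6860766 and is the filled one, while the first stands at -0.10.

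Hmox1 encodes heme oxygenase 1, which breaks heme down to biliverdin, carbon monoxide and iron and is among the most inducible NRF2 targets in macrophages. It had log2 values of 12.29, 12.29 and 12.03 under 6877002, of 12.13, 12.20 and 12.34 under 6860766 and of 12.20, 12.27 and 12.22 with vehicle. The groups overlapped in every comparison. The difference was -0.02 ± 0.08 for 6877002 minus vehicle and -0.01 ± 0.08 for 6860766 minus vehicle (limma adjusted p = 0.91 and 0.98, n = 3 per group), with intervals of -0.18 to 0.13 and -0.17 to 0.15. Array 6860766 replicate 3 had the highest value of the 9 arrays for Hmox1, Srxn1, Slc7a11 and Txnrd1. In the fit without a block, Hmox1, Srxn1 and Txnrd1 gave no call in any of the 3 comparisons, with or without this array. Without it, Slc7a11 passed for 6877002 minus vehicle (-0.30, limma adjusted p = 0.014).

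**Figure D4:**
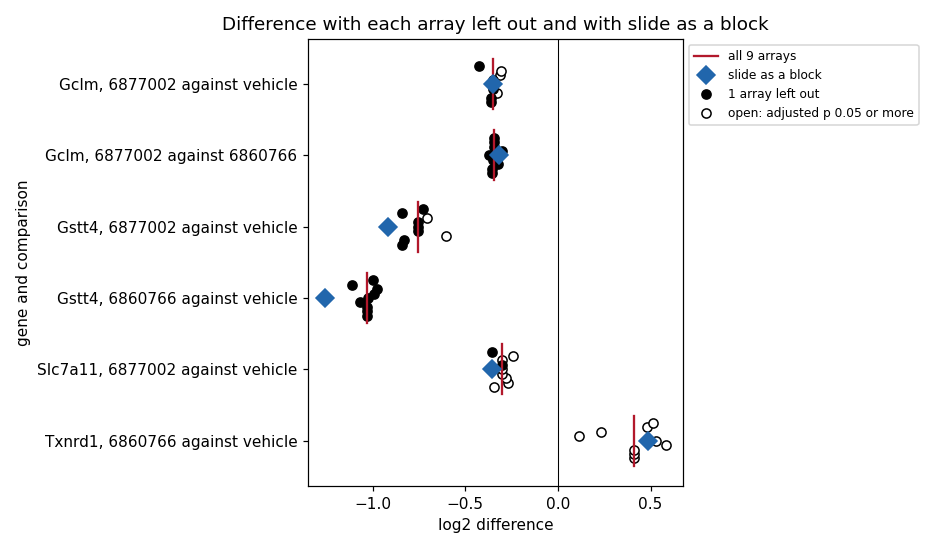
Log2 difference (horizontal axis) of 4 members with all 9 arrays (red line), with each array left out in turn (circles) and with slide as a block (blue diamond); open circles have an adjusted p of 0.05 or more. The Gstt4 difference for 6860766 stays filled throughout, while the Txnrd1 difference is open with any 1 array left out and passed with slide as a block, at 0.49.

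A further 108 genes of the pathway were listed by role. Of these, 103 had a probe and 77 were tested. Under 6877002, 2 rose, 0 fell and 75 did not pass against vehicle, where 1.92% of all features were higher and 1.07% lower. Under 6860766, 2 rose, 1 fell and 74 did not pass, where 1.09% were higher and 1.79% lower. Between 6877002 and 6860766, 2 were higher, 2 lower and 73 did not pass, where 3.32% were higher and 1.19% lower. At an unadjusted p under 0.05, 14, 15 and 19 of the 77 passed in these comparisons, where 16.4%, 12.7% and 16.7% of all features did. The counts of smaller lists at that threshold, below, stand beside the same shares. The list's median was -0.023, 0.037 and -0.045, beside -0.008, 0.010 and -0.020 for all features.

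Chac1, an enzyme that degrades glutathione, was the one gene of this list that rose under both compounds. It had log2 values of 9.58, 9.42 and 9.63 under 6877002, of 9.25, 9.52 and 9.49 under 6860766 and of 8.62, 8.63 and 8.67 with vehicle. The arrays of both compounds lay above all vehicle arrays. Its calls against vehicle stood in all 19 alternatives that gave a test. Of the other 6 tested genes of glutathione synthesis and turnover, among them Gss and Slc3a2, the partner chain of Slc7a11, 0 passed in limma in any of the 3 comparisons, and with Chac1 included 3, 3 and 1 of the 7 had an unadjusted p under 0.05.

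Nqo1 encodes a quinone reductase that both NRF2 and the aryl hydrocarbon receptor induce. It had log2 values of 6.33, 6.37 and 6.12 under 6877002, of 5.73, 5.77 and 5.57 under 6860766 and of 5.74, 5.80 and 5.69 with vehicle. The 6877002 arrays lay above the other 6. The difference was 0.53 ± 0.13 for 6877002 minus vehicle (limma adjusted p = 0.032) and 0.59 ± 0.13 for 6877002 minus 6860766 (adjusted p = 0.011). So under 6877002 this target was higher while Gclm was lower, in the same arrays. The call against vehicle was lost without 6877002 replicate 1, without 6877002 replicate 2, without any 1 vehicle array, with median scaling, with no detection filter and with slide as a block (0.58, adjusted p = 0.11). The call between the compounds was lost without 6877002 replicate 1, without 6877002 replicate 2 and with median scaling. Without background correction the Nqo1 differences were 0.23 from vehicle and 0.24 between the compounds, and both calls stood.

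Slc40a1, the iron exporter ferroportin, rose under 6860766. It had log2 values of 10.50, 10.32 and 10.56 under 6877002, of 10.74, 10.82 and 10.81 under 6860766 and of 10.41, 10.36 and 10.39 with vehicle. The 6860766 arrays were the 3 highest. The difference was 0.41 ± 0.07 for 6860766 minus vehicle (limma adjusted p = 0.0025), which stood in all 19 alternatives, and -0.33 ± 0.07 for 6877002 minus 6860766 (adjusted p = 0.0066), which was lost without 6877002 replicate 2 and with median scaling. The other 8 genes of heme and iron handling, among them the ferritin chains Fth1 and Ftl1, gave 0 calls in limma in any of the 3 comparisons. At an unadjusted p under 0.05, and with Slc40a1 included, 1 of 9 passed for 6877002 against vehicle, 2 for 6860766 against vehicle and 4 between the compounds.

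Among the 9 regulators of NRF2 that were tested, 0 passed in limma against vehicle for either compound (2 and 1 at an unadjusted p under 0.05). Between the compounds 2 differed, where 4.52% of all features were called, and 4 had an unadjusted p under 0.05, where 16.7% of all features did. Keap1, the inhibitor of NRF2, had log2 values of 10.67, 10.67 and 10.76 under 6877002, of 10.35, 10.34 and 10.48 under 6860766 and of 10.62, 10.60 and 10.59 with vehicle. The vehicle arrays lay between the compounds. It was higher under 6877002 than under 6860766 by 0.31 ± 0.07 (limma adjusted p = 0.0060), and this call was lost only with median scaling among the 19 alternatives (adjusted p = 0.27). All 4 detected Keap1 probes had this sign, and 3 of them passed in the fit of every probe. Maff, a small MAF partner of NRF2, was lower under 6877002 than under 6860766 (-0.46 ± 0.13, adjusted p = 0.046), and this call stood in 4 of 19 alternatives. Without background correction the Maff difference was -0.21 (adjusted p = 0.052).

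**Figure D5:**
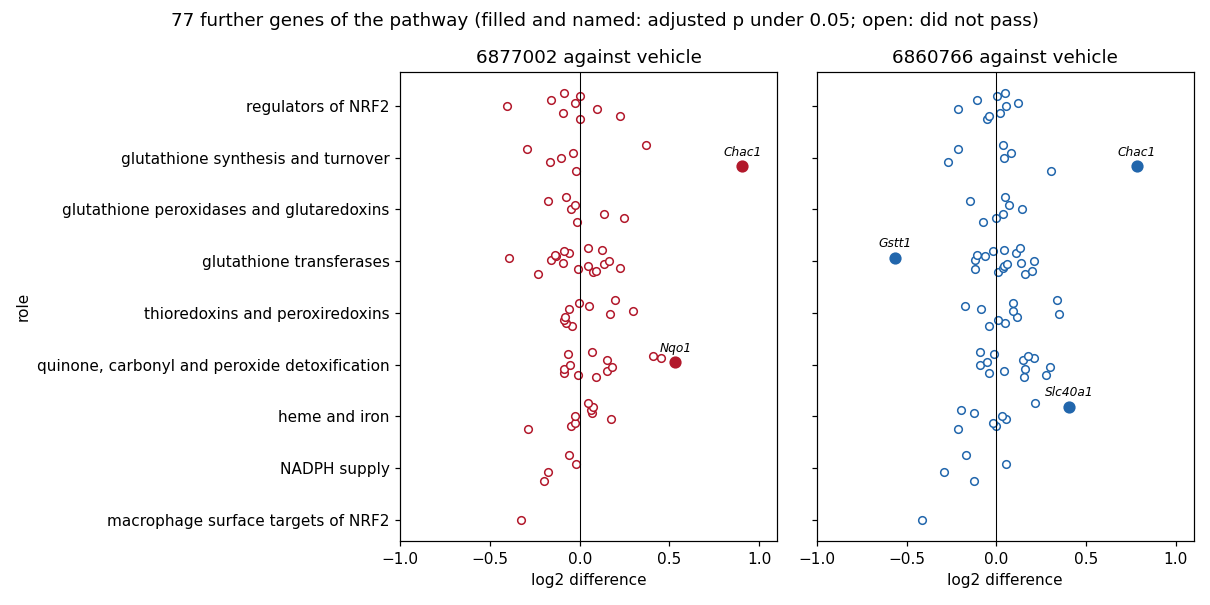
Log2 difference from vehicle (horizontal axis) of the 77 further genes of the pathway by role, under 6877002 (left) and 6860766 (right); filled, named points have an adjusted p under 0.05. Chac1 lies to the right in both panels (0.91 and 0.78), Nqo1 lies to the right in the left panel, and Slc40a1 lies right and Gstt1 left of 0 in the right panel.

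Of 17 further glutathione transferases tested, Gstt1 alone passed, and the remaining classes (Gstm, Gsta, Gstp, Gsto, Gstk, Gstz and microsomal members) gave 0 calls in limma in any comparison, with 1, 2 and 2 of the 17 at an unadjusted p under 0.05. Quinone, carbonyl and peroxide detoxification (13 tested) held Nqo1 as its one called gene, and 3, 3 and 4 of the 13 had an unadjusted p under 0.05. Thioredoxins and peroxiredoxins (10 tested), glutathione peroxidases and glutaredoxins (7 tested) and genes of NADPH supply (4 tested) likewise gave 0 calls in limma in any comparison. Their counts at an unadjusted p under 0.05 were 1, 2 and 2 for the first, 1, 1 and 2 for the second and 1, 0 and 0 for the third, in the order 6877002 against vehicle, 6860766 against vehicle and 6877002 against 6860766. Marco, a macrophage surface target of NRF2, gave no call. Its differences from vehicle were -0.33 under 6877002 and -0.41 under 6860766 (limma adjusted p = 0.22 and 0.13), both with an unadjusted p under 0.05.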

How the data were processed

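The authors deposited, for every array, bead-summary intensity values not normalised between arrays, and beside each of them a detection p-value. GenomeStudio 2011.1 is named in the submitters' processing notes. A second deposited table holds normalised log2 values, and the same notes name limma 3.22.7 under R 3.1.3. They differed by at most 0.016 from limma's neqc (offset 16) run here on the intensities, and were used as deposited, because the definition of the members names them.

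Probes with a detection p under 0.05 on at least 3 arrays were kept, and the brightest one stood for a gene (9081 genes, and 2325 probes with no or several symbols). R 4.3.3 and limma 3.58.1 fitted all 9 arrays with a coefficient per group (6 residual degrees of freedom, eBayes with trend), after a check on simulated data. A fit with slide as a block leaves fewer degrees of freedom. P-values, SEs and intervals rest on the spread between 3 arrays per group, moderated towards that of other features of similar level. The moderation carried 12.4 prior degrees of freedom beside the 6 residual ones. An SE can therefore be smaller or larger than a gene's own arrays would give. Differences between mice and between slides are not separated in this spread. The number of arrays limits the precision. An exact permutation test of 3 arrays against 3 cannot give a p below 0.1. Members and lists were chosen with earlier results of these data known. All members were named, and of the wider list each gene that passed in any comparison. Alternatives changed the values, background, scaling, filter, probes, blocks and arrays.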

Additional observations from a re-analysis of the deposited data

How the results depend on the processing

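With arrays scaled to a common median, the members called were 1 (6877002 against vehicle) and 0 (6877002 against 6860766), and the features called in all were 207 (76.8% higher, against 64.2%), 167 for 6860766 against vehicle (51.5% higher, against 37.8%) and 307. Slide as a block gave 2 members for 6860766 against vehicle and 3 between the compounds, with Txnrd1 added in both and Slc7a11 in the second. With every detected probe a feature, 2 members were called for 6860766 against vehicle, where 2.4% of all probes were called. The added member came through the second Prdx1 probe, whose own alternatives were chosen after seeing the data. The compared groups alone gave 615 features for 6877002 against vehicle, against 341. With each array left out in turn, members called ranged from 0 to 3 for 6877002 against vehicle, from 1 to 1 for 6860766 against vehicle and from 1 to 2 between the compounds, and features called from 172 to 650, from 172 to 471 and from 315 to 1059. The cause of these shifts was not tested. The mouse number as a replicate block gave 2, 1 and 1 members and 341, 336 and 497 features, and the title number as a block 380 features for 6877002 against vehicle. Deviations from the group mean correlated at -0.15 to 0.16 for arrays with the same mouse number. The pair at 0.16 also shared a slide. A pair with neither in common, 6860766 replicate 3 and vehicle replicate 3, reached 0.28. With 3 arrays behind each mean, these values cannot settle whether a number is the same animal. The labels do not state it, so the main fit did not pair the arrays. Of the values of single genes under alternatives, 816 kept their side of the threshold or stayed within 1 SD, 46 lost it, 9 gained it, 26 moved and 0 called values changed sign. Signal over background limits Gclc, Gstt4, Nqo1, Gstt1 and Maff.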
